A study of Mus musculus with 556 samples.

Results

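The comparison covers 79 mouse oocytes out of 512 single cells in the deposited table: 23 that carry a 50 ng label for the injected Dam-lamin B1 mRNA and 56 that received Dam-lamin B1 mRNA with no dose in their labels, called standard here. Cells were taken by the titles of the table's columns. Of the 27 columns titled 50 ng, 4 were left out because another label of the same oocyte gives 20 ng. Both groups are germinal vesicle oocytes labelled C57BL/6, and the protocol names females of the F1 cross CBAxC57BL/6J, aged 5 to 8 weeks. Every oocyte was injected 48 h after the females were given PMSG, a gonadotropin that makes follicles grow. The protocol lists 250 ng/µl of mRNA for TIR1, the plant receptor through which auxin triggers degradation, 50 ng/µl for membrane-EGFP, and 5 ng/µl for AID-Dam-LaminB1 in oocytes. These concentrations are recorded for the standard oocytes. For the 50 ng oocytes none is recorded, including those of TIR1 and membrane-EGFP. Auxin was absent for 6 to 8 h in both groups. The 50 ng label has no concentration unit, and the sources used here do not say how it relates to the 5 ng/µl of the protocol. As background for both groups, 43 oocytes with Dam alone (20 ng/µl), 17 Dam-lamin B1 oocytes labelled 20 ng and 19 Dam-lamin B1 zygotes were measured the same way. The labels name no animal, litter or day, so each group counts as 1 sample: no test between the groups was possible, SDs describe oocytes, and the dose label cannot be told apart from any other difference in how the groups were prepared.

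The nuclear lamina is a mesh of lamins under the inner nuclear membrane. In most somatic cells it holds large, gene-poor lamina-associated domains (LADs), and the rest of the genome lies further inside. Dam, a bacterial enzyme that methylates adenine in GATC, marks the DNA it reaches: fused to lamin B1 it marks DNA near the lamina, and by itself it marks accessible chromatin. A germinal vesicle is the large nucleus of an oocyte arrested in the first meiotic prophase, in which each chromosome is still paired with its homologue.

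GATC is the only sequence at which the assay can give signal, so the 250 bases before the annotated start are shown for 4 genes described below, with each GATC in capitals (RefSeq, build GRCm38.p6, 5' to 3' on the gene's strand). The first 3 belong to genes imprinted by a maternal histone mark and their bins had a higher mean at 50 ng, which for Jade1 stayed just under the limit of 1.5-fold. The last belongs to an oocyte gene cluster, and its bin had a lower mean.
Slc38a4: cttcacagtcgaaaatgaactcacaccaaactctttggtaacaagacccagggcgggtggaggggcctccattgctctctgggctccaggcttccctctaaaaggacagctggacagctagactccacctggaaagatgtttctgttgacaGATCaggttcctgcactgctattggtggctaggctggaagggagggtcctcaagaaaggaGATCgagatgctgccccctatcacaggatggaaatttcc
Gab1: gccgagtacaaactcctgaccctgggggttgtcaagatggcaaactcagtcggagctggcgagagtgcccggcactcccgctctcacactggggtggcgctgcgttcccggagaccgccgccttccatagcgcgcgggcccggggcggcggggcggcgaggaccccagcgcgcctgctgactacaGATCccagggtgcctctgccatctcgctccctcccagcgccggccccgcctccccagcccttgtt
Jade1: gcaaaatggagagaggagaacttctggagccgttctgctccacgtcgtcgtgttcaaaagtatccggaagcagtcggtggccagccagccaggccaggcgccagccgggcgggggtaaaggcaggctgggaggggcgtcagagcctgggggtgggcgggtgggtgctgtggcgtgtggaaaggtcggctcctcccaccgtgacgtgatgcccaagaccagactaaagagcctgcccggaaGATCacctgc
Pramel39: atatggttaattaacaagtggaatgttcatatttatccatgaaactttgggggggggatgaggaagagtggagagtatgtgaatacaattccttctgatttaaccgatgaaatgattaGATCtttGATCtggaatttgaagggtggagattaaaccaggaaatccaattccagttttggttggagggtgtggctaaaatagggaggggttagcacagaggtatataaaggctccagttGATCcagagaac
These stretches lie at chr15:97055957-97056206 (minus strand), chr8:80880520-80880769 (minus), chr3:41555484-41555733 (plus) and chr5:94306797-94307046 (minus). They hold 2, 1, 1 and 3 GATC motifs. GATC, which reads the same on both strands, occurs in 42.0% of the 27025 such stretches, 1 per gene. The values below are for 100 kb bins, so none of them is the signal of a single motif.

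For each oocyte the table gives the ratio of observed to expected reads (OE) in 100 kb bins of the 19 autosomes, in build mm10. Values were complete for 24022 bins. Each value is a whole number of reads times a fixed step, from which the reads were recovered. The 50 ng oocytes had 27781 to 162908 autosomal reads (median 61615), and the standard oocytes 23561 to 177583 (median 47941). The depths overlapped, with a higher median at 50 ng. Measures over the whole genome that depend on depth were repeated with every cell thinned to 23561 reads, called equal reads below. The number of bins with 2 reads per bin with 1 read was then 0.505 ± 0.0123 (SD) at 50 ng and 0.614 ± 0.161 in standard oocytes. The highest values were 0.529 and 1.23. Whether 1 recovered read means the same in both groups was not tested, so equal reads are equal in recovered reads only. Counts of empty oocytes and SDs for single bins are as deposited and were not repeated at equal reads. In the 23857 bins with a step, no pair of oocytes looked like repeats of the same cell: the highest correlation was 0.363 among the 253 pairs of 50 ng oocytes and 0.370 among the 1540 pairs of standard oocytes. The assay reads DNA, so the oocyte label could not be checked by expressed markers.

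The signal was spread far more evenly over the genome at 50 ng. At equal reads the share of bins without a read had a lowest, median and highest value of 38.4%, 39.5% and 43.5% in the 50 ng oocytes and 41.5%, 50.9% and 60.0% in the standard oocytes. The groups met only at their edges: 20 of 23 oocytes at 50 ng lay below every standard oocyte, and 52 of 56 standard oocytes lay above every 50 ng oocyte. The means were 39.9% ± 1.27 (SD, n = 23) and 50.9% ± 4.36 (n = 56). Dam oocytes were at 41.2% ± 1.89 (n = 43), oocytes labelled 20 ng at 40.3% ± 1.66 (n = 17) and zygotes at 46.9% ± 3.11 (n = 19), so the 50 ng mean was the lowest of these and lay within 1 SD of Dam. Without thinning the shares were 14.1% ± 9.79 and 34.5% ± 14.7.

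The variance of reads per bin divided by their mean is 1 for reads scattered at random over equal bins, and larger for clumped reads. At equal reads it ran from 1.07 to 1.36 (median 1.12) at 50 ng and from 1.25 to 3.25 (median 2.00) in standard oocytes. In 20 of 23 oocytes at 50 ng it was below the lowest standard value, and 53 of 56 standard values were above the highest at 50 ng. The oocytes labelled 20 ng had 1.17 ± 0.103 (n = 17), next to 1.14 ± 0.0723 at 50 ng. Zygotes, at 1.70 ± 0.244, lay between the standard oocytes and the other groups. Without thinning, which itself moves the ratio towards 1, it was 1.44 ± 0.294 (1.12 to 2.10) at 50 ng and 3.39 ± 0.912 (1.36 to 5.70) in standard oocytes. The 50 ng mean was below the standard mean in both settings. The order of the other groups changed: without thinning Dam oocytes (2.93) lay above zygotes (2.45), and oocytes labelled 20 ng (1.41) below 50 ng. The distance from 1 depends on the depth and on the recovered step being 1 read.

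**Figure D1:**
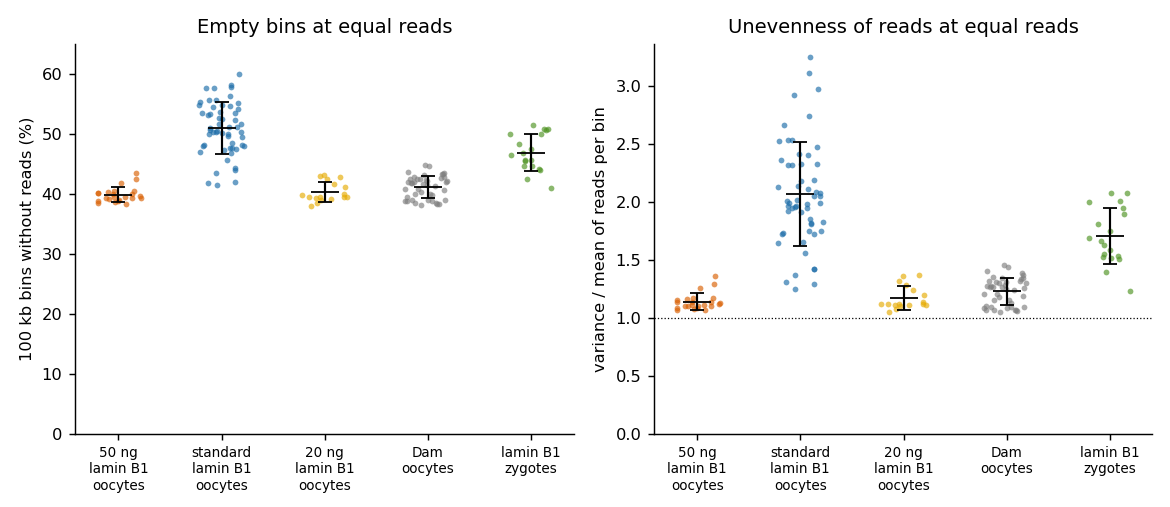
Share of 100 kb bins without reads (left, %) and variance over mean of reads per bin (right) with each cell thinned to 23561 reads. Points are cells, black bars the mean and SD of the group, and the dotted line is the random value of 1. The 50 ng oocytes lie at 38.4% to 43.5% and 1.07 to 1.36, and nearly all standard oocytes lie above them.

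Empty bins also lay together more often in standard oocytes. At equal reads, runs of at least 0.5 Mb without a read covered 3.73% to 11.6% of bins (median 5.83%) at 50 ng and 5.86% to 27.9% (median 18.5%) in standard oocytes. Only 6 standard oocytes lay within the 50 ng range. The longest empty run was 1.75 ± 0.367 Mb and 2.78 ± 0.813 Mb. These runs, the variance over mean and the chromosome levels below were added after the data had been seen.

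Whole chromosomes differed from oocyte to oocyte in the standard group and hardly at 50 ng. The level of a chromosome is its mean OE divided by the oocyte's mean over all bins. The SD of this level over the 19 chromosomes of an oocyte ran from 0.0395 to 0.202 (median 0.0637) at 50 ng and from 0.113 to 0.605 (median 0.271) in standard oocytes. Of the 50 ng oocytes 19 of 23 lay below every standard oocyte, and 44 of 56 standard oocytes lay above every 50 ng oocyte. The means of 0.0794 ± 0.0409 and 0.287 ± 0.104 were 0.0818 ± 0.0395 and 0.288 ± 0.103 at equal reads, so depth moved them little. Dam oocytes had 0.0794 ± 0.0361, oocytes labelled 20 ng 0.104 ± 0.0669 and zygotes 0.105 ± 0.0269.

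At least 1 chromosome stood 1.5-fold or more above the oocyte's mean in 43 of 56 standard oocytes (76.8%, exact 95% binomial interval 63.6% to 87.0%) and in 1 of 23 at 50 ng (4.35%, 0.110% to 21.9%). None of the 43 Dam oocytes had such a chromosome (0%, up to 8.22%). These intervals cover counting error alone, with each oocyte taken as an independent draw. A chromosome at least 1.5-fold below the mean occurred in 16 standard oocytes and in 0 at 50 ng. The highest level of any chromosome was 2.90 in the standard group and 1.56 at 50 ng. On every one of the 19 chromosomes the SD over oocytes was larger in the standard group, by 2.02 to 6.81 times.

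Chromosome 14 stood apart. Its level in standard oocytes had a lowest, median and highest value of 0.511, 1.28 and 2.46, against 0.758, 0.991 and 1.21 at 50 ng. The 50 ng range thus lay inside that of the standard oocytes, and 21 standard oocytes but no 50 ng oocyte were at 1.5 or above. The mean was 1.35 ± 0.509 (n = 56) in standard oocytes, 0.992 ± 0.112 (n = 23) at 50 ng, 1.05 ± 0.183 (n = 17) in oocytes labelled 20 ng and 0.890 ± 0.0691 (n = 43) with Dam. It was the highest chromosome of 18 standard oocytes and of 0 at 50 ng. Other chromosomes had wide ranges with means near 1: chromosome 16 ran from 0.582 to 2.90 in standard oocytes and from 0.889 to 1.36 at 50 ng, and chromosome 1 from 0.776 to 2.59 and from 0.937 to 1.10.

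**Figure D2:**
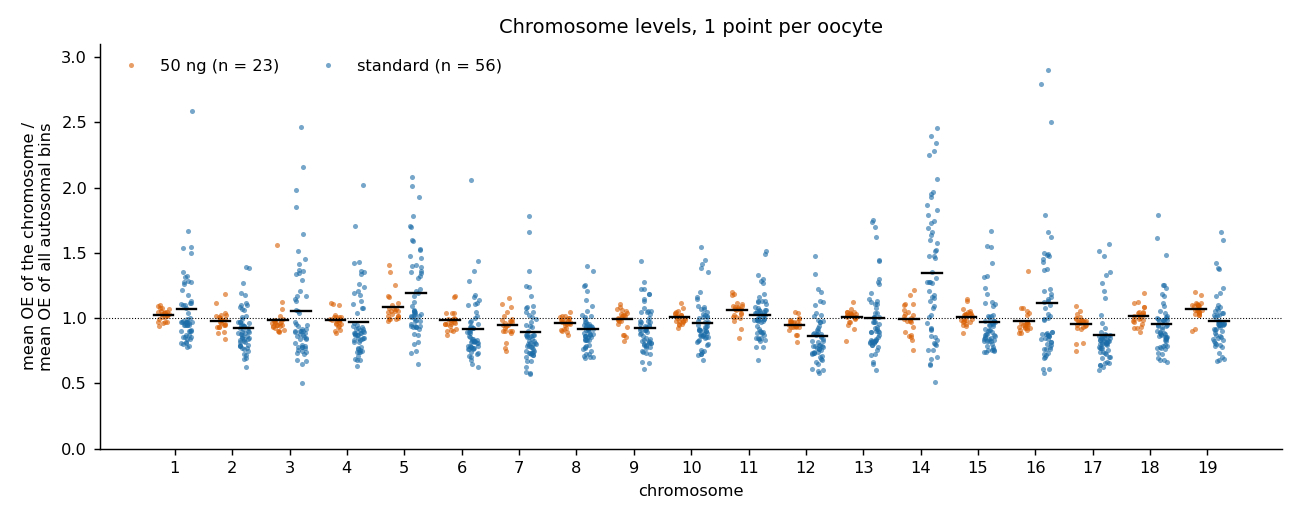
Level of each autosome (mean OE of the chromosome over mean OE of all autosomal bins) in each oocyte, at 50 ng (orange) and standard (blue). Points are oocytes and black bars the group means. Points at 50 ng lie between 0.748 and 1.56, while standard oocytes reach 2.46 on chromosome 14 and 2.90 on chromosome 16.

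The autosomes as a whole also held a different part of the expected reads. Observed over expected reads, summed over autosomes, were 0.959 to 1.01 (median 0.991) at 50 ng and 0.813 to 0.970 (median 0.897) in standard oocytes. In 21 of 23 oocytes at 50 ng the value was above every standard oocyte. The means were 0.989 ± 0.0118 and 0.892 ± 0.0341, with 1.01 ± 0.00768 in Dam oocytes. Other chromosomes were not analysed here. This offset enters every ratio of OE between the groups, so results for bins are given as deposited and with each oocyte scaled to the same mean.

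Signal along the chromosomes was less continuous at 50 ng. The autocorrelation, Pearson's r between the OE of bins a fixed distance apart in 1 oocyte, was 0.0188 to 0.189 (median 0.0633) at 50 ng and 0.0758 to 0.424 (median 0.258) in standard oocytes for neighbouring bins at equal reads. All 23 oocytes at 50 ng lay below the standard median and 14 below every standard oocyte. The means were 0.0734 ± 0.0380 and 0.252 ± 0.0772. At 1 Mb they were 0.0311 ± 0.0188 and 0.127 ± 0.0440, and at 5 Mb 0.0121 ± 0.0131 and 0.0700 ± 0.0331. Dam oocytes, at 0.0810 ± 0.0385 for neighbouring bins, were close to the 50 ng oocytes, and oocytes labelled 20 ng had 0.0944 ± 0.0599. Zygotes had 0.186 ± 0.0519 there and 0.0191 ± 0.00978 at 5 Mb.

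The chromosome levels account for part of this value by construction, since bins of a high chromosome are high together. With every chromosome of every oocyte scaled to the same mean, autocorrelation at equal reads was 0.0686 ± 0.0323 at 50 ng and 0.178 ± 0.0544 in standard oocytes for neighbouring bins, and 0.0253 ± 0.0128 and 0.0658 ± 0.0192 at 1 Mb. Zygotes scaled in this way had 0.178 for neighbouring bins and 0.0797 at 1 Mb, so the standard oocytes were not above zygotes on this scale. All 23 oocytes at 50 ng remained below the standard median at both distances. The difference within chromosomes was therefore smaller and in the same direction.

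**Figure D3:**
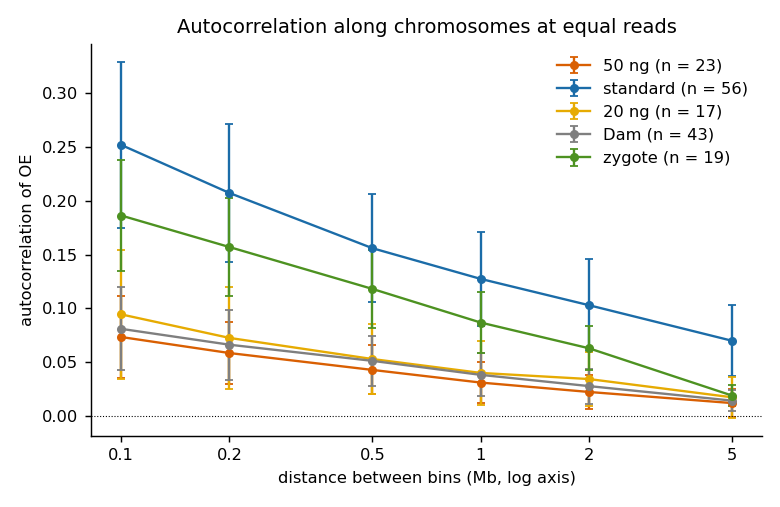
Autocorrelation of OE against the distance between bins (Mb, log axis) with each cell thinned to 23561 reads. Points and bars are the mean and SD over cells of each group. The 50 ng oocytes start at 0.0734 and lie with the Dam oocytes, while the standard oocytes start at 0.252 and stay highest at 5 Mb with 0.0700.

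Bins in blastocyst LADs had on average less signal than other bins, in both groups. The LAD contrast is the log2 of the mean OE in the 12082 bins covered at least 50% by the deposited LADs of both the inner cell mass (ICM) and the trophectoderm (TE), divided by that in the 7688 bins touched by neither. It ran from -0.38 to -0.04 (median -0.24) at 50 ng and from -0.51 to 0.25 (median -0.17) in standard oocytes. The standard range enclosed the 50 ng range, and 12 of 56 standard oocytes but 0 of 23 at 50 ng were above 0. The means of -0.23 ± 0.09 and -0.17 ± 0.19 differed by -0.05, less than 1 SD of the standard oocytes, and the SD was 2.21 times larger in the standard group. Oocytes labelled 20 ng had -0.24 ± 0.09. With Dam the contrast was -0.45 ± 0.20, and in zygotes it was 0.64 ± 0.26.

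**Figure D4:**
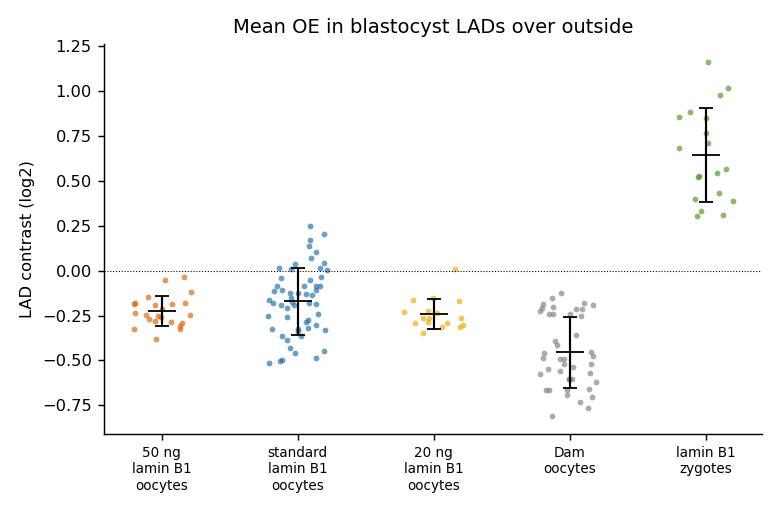
LAD contrast (log2 of mean OE in bins of both blastocyst LAD lists over bins of neither) by group. Points are cells, and black bars the mean and SD. The 50 ng oocytes lie between -0.38 and -0.04, inside the standard range of -0.51 to 0.25 and below all zygotes.

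Relative to the oocyte's mean, bins in both LAD lists were at 0.951 ± 0.0245 at 50 ng, 0.972 ± 0.0510 in standard oocytes and 0.890 ± 0.0516 with Dam. Bins in neither list were at 1.11 ± 0.0377, 1.10 ± 0.0875 and 1.22 ± 0.0960. For these classes the 50 ng and standard means lay within 1 standard SD of each other, on the same side as Dam and nearer to 1. Bins in ICM LADs only were at 0.981 ± 0.0220 at 50 ng, 0.918 ± 0.0741 in standard oocytes and 0.973 ± 0.0208 with Dam.

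Standard oocytes correlated slightly more with zygotes than 50 ng oocytes did. Pearson's r over bins with the mean Dam-lamin B1 zygote profile ran from -0.0537 to 0.135 (median -0.00451) at 50 ng and from -0.0321 to 0.132 (median 0.0715) in standard oocytes. It was above 0 in 54 of 56 standard oocytes and in 10 of 23 at 50 ng. The means were 0.00781 ± 0.0409 and 0.0701 ± 0.0332, and 0.00355 ± 0.0331 and 0.0575 ± 0.0276 at equal reads. All of these values are weak beside the 0.383 ± 0.0633 of a zygote with the mean of the other zygotes. With the mean Dam oocyte profile r was 0.340 ± 0.0835 and 0.272 ± 0.0915, and 0.240 ± 0.0331 and 0.231 ± 0.0712 at equal reads, where the means differed by less than 1 SD of either group. These r values describe bins that share mappability and base composition.

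The mean profiles themselves, over 24022 bins, correlated at 0.763 between 50 ng and Dam oocytes and at 0.668 between standard and Dam oocytes. The 50 ng and standard profiles correlated at 0.673. The SD over bins of the mean profile was 0.346 at 50 ng, 0.442 in standard oocytes and 0.346 with Dam. Averaging over oocytes therefore left more relief in the standard profile, although it came from more oocytes.

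The order of the groups by likeness between oocytes depended on the setting. The mean r of an oocyte with the others of its group was 0.149 ± 0.0368 at 50 ng and 0.143 ± 0.0371 in standard oocytes. At equal reads it was 0.0722 ± 0.0115 and 0.104 ± 0.0253, the opposite order, with all 23 oocytes at 50 ng below the standard median. Medians over oocytes and Spearman's rho also gave the lower value at 50 ng.

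Relative to the oocyte's mean, gene-rich bins had a smaller excess at 50 ng, by less than 1 SD of the standard oocytes. The mean OE of the most gene-rich bins as deposited was 1.13 in both groups. Bins with 6 or more protein-coding genes, 365 in number, were at 1.16 ± 0.0424 of the oocyte's mean at 50 ng, 1.28 ± 0.146 in standard oocytes and 1.37 ± 0.221 with Dam. The 13371 bins without a gene were at 0.937 ± 0.0165, 0.934 ± 0.0425 and 0.890 ± 0.0427. The last 5 Mb of the chromosomes were at 1.12 ± 0.0522 at 50 ng and 1.24 ± 0.159 in standard oocytes. Pearson's r with gene density was 0.0827 ± 0.0297 at 50 ng and 0.0692 ± 0.0398 in standard oocytes. It was thus higher at 50 ng, the other direction, by less than 1 SD of the standard oocytes.

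Bin by bin, the mean OE of the groups differed by at least 1.5-fold (with 0.1 added to both means) in 5484 of 24022 bins (22.8%): 4680 (19.5%) were higher and 804 (3.35%) lower at 50 ng. Scaled to the same mean per oocyte, 4898 bins (20.4%) passed, 3368 (14%) higher and 1530 (6.37%) lower. The median log2 ratio of all bins moved from 0.19 to 0.06 with this scaling, so 0.19 is the level against which single bins below should be read. Scaled per chromosome, 4494 bins (18.7%) passed, 3277 (13.6%) higher and 1217 (5.07%) lower. In each of these counts higher bins outnumbered lower ones. With 1 in place of 0.1 added, which shrinks the ratios of low means, 297 bins passed, 126 higher and 171 lower.

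The lower bins were concentrated on chromosome 14, which held 285 of the 804 (35.4%) but 5.06% of all bins. Its own share of lower bins was 23.5%, against 7.77% on chromosome 16, the next in order. With chromosomes scaled, 125 lower bins of 1217 (10.3%) were on chromosome 14. Higher bins were as frequent in bins of both LAD lists (19.2%) as in bins of neither (18.3%), and lower bins made up 4.40% and 1.59%. Among bins with 6 or more genes 6.58% were higher and 2.47% lower, and with each oocyte scaled 4.66% were higher and 7.95% lower, so the order turned with the scale.

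In 1 Mb windows the differences were smaller. Of 2403 windows 160 (6.66%) passed 1.5-fold, 123 (5.12%) higher and 37 (1.54%) lower at 50 ng. Scaled to the same mean per oocyte 116 (4.83%) passed, 50 (2.08%) higher and 66 (2.75%) lower, so the majority direction depended on the scale. Of the 5 lowest windows 4 were on chromosome 14. The 5 lowest and 5 highest windows were chosen for an extreme ratio, so gaps between the groups in them follow from that choice. Their values are given as a description. The lowest, from 110000001 to 111000000 with Slitrk6, a neuronal transmembrane protein gene, had 0.448, 0.921 and 1.98 (lowest, median, highest OE) at 50 ng and 0.321, 2.07 and 8.29 in standard oocytes. The 50 ng range lay within the standard range, and the standard median lay above the highest 50 ng value. The log2 ratio was -1.14, or -0.77 with chromosomes scaled.

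The window on chromosome 1 from 173000001 to 174000000 was among the 5 highest. It holds the interferon-inducible Ifi200 genes, Aim2, a sensor of cytosolic DNA, and olfactory receptor genes. Its OE was 0, 0.459 and 0.998 (lowest, median, highest) at 50 ng and 0, 0.171 and 0.674 in standard oocytes. Both groups were low and overlapped, with means of 0.486 ± 0.227 and 0.191 ± 0.135, against 0.507 ± 0.182 with Dam and 1.40 in zygotes. The highest window by rank, of vomeronasal receptor genes on chromosome 7, rested on 1 oocyte with an OE of 24.7, while the median at 50 ng was 0.102.

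Named bins were the 10 most extreme in each direction that held a protein-coding gene and had a mean OE of at least 0.5 over both groups. Of these 20 bins 6 gave no step for counting reads, and in each of the 6 at most 9 oocytes of either group had a value above 0. The bin of Vmn1r247, a pheromone receptor gene, had the highest ratio because 1 oocyte of 23 had an OE of 173, and the other oocytes of both groups were at 0. Those 6 bins are not described further.

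The 6 higher bins with a step were chosen for an extreme ratio and reached the floor of 0.5 through the 50 ng oocytes. Low means and many empty oocytes in the standard group follow from that choice, and their values are given as a description. Their mean OE was 0.898 to 1.06 at 50 ng, 0.130 to 0.243 in standard oocytes and 0.715 to 1.12 with Dam. Between 39 and 43 of 56 standard oocytes were empty, and 0 to 6 of 23 at 50 ng. In the bin of Ncald, a neuronal calcium sensor (chromosome 15, 37500001 to 37600000), the lowest, median and highest OE were 0.369, 0.909 and 2.19 at 50 ng and 0, 0 and 1.76 in standard oocytes. Every 50 ng oocyte had a read there, and 40 of 56 standard oocytes (71.4%, exact 95% interval 57.8% to 82.7%) had none. The interval covers counting error alone, with each oocyte taken as an independent draw. The log2 ratio was 1.74.

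Rtn1, which encodes a reticulon of the endoplasmic reticulum (chromosome 12, 72300001 to 72400000), had 0, 0.740 and 3.29 at 50 ng and 0, 0 and 1.76 in standard oocytes, a log2 ratio of 1.80. The other bins of this kind held Apoh, for a plasma glycoprotein that binds phospholipids (log2 1.79), Tmem247 and the small GTPase gene Rhoq (1.76), Sez6l (1.72, listed under Gm6588) and a group of olfactory receptors with Olfr395 (2.16). They lay on chromosomes 5, 11, 12, 15 and 17, inside and outside the LAD lists.

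Of the 8 lower bins with a step, 5 (Pramel38, Gm10324, Gm21119, Gm6482 and Scgb1b10) held only 1 to 8 reads at 50 ng and were empty in most oocytes of both groups. All 8 bins were chosen for an extreme ratio, so higher standard values follow from that choice and are given as a description. The best covered was that of AF067063 and Tcstv1, the latter a gene of the 2-cell embryo (chromosome 13, 119800001 to 119900000). Its OE was 0, 1.08 and 2.71 (lowest, median, highest) at 50 ng and 0, 3.23 and 14.7 in standard oocytes. The standard median lay above the highest 50 ng value, although the ranges overlapped. The means were 1.16 ± 0.701 and 3.81 ± 2.67, from 65 and 398 reads, with 1.77 ± 0.775 for Dam, and the log2 ratio was -1.64. Spertl (-1.50) and Gm17175 (-1.50), both on chromosome 14, were at -1.18 and -1.15 with chromosomes scaled. Reads of near-identical gene copies may not be placed uniquely, so the values of such bins are uncertain in both groups.

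Among 20 gene lists, genes imprinted by maternal H3K27me3 differed most by the share of their bins that were higher. H3K27me3 is the mark of the Polycomb repressor PRC2, and in these genes it is laid down in the oocyte and silences the maternal copy in the embryo. Of 16 bins 9 were at least 1.5-fold higher at 50 ng and 0 lower, with a median log2 ratio of 0.72, against 19.5% higher and a median of 0.19 over all bins. The counts were the same with each oocyte or each chromosome scaled, although with chromosomes scaled Sox21 (0.68) passed in place of Epas1 (0.54). All 16 mean OE values were higher at 50 ng, and 15 of 16 were higher still with Dam. The median of 0.19 over all bins is also above 0, and the shares of all bins with such an order were not counted. The members were chosen with earlier results of these data known, so these counts are a description. For this and all lists below, the shares over all bins were 19.5% higher and 3.35% lower as deposited. They were 14% and 6.37% with each oocyte scaled, and 13.6% and 5.07% with chromosomes scaled.

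The list score of an oocyte, the log2 of the mean OE over the list's bins over that of all bins, was -2.41, -0.71 and 0.06 (lowest, median, highest) at 50 ng and -4.41, -1.59 and -0.05 in standard oocytes. The ranges overlapped, and 21 of 23 oocytes at 50 ng were above the standard median. The means were -0.78 ± 0.59 at 50 ng, -1.61 ± 0.90 in standard oocytes, -0.87 ± 0.82 in oocytes labelled 20 ng and -0.32 ± 0.31 with Dam. At equal reads 58.7% of these bins were empty at 50 ng, 76.3% in standard oocytes and 49.7% with Dam. Thus the list was below the oocyte's mean in these 4 groups, with the lowest mean in standard oocytes. Dam-lamin B1 zygotes also had a low score, at -0.83 ± 0.67.

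Gab1, an adaptor of growth factor receptors needed in the placenta, had the largest ratio. Its bin (chromosome 8, 80800001 to 80900000) had an OE of 0.537 ± 0.419 at 50 ng and 0.139 ± 0.281 in standard oocytes, from 41 and 35 reads, and 0.694 with Dam. No read fell there in 5 of 23 oocytes at 50 ng (21.7%, exact 95% interval 7.46% to 43.7%) and in 42 of 56 standard oocytes (75.0%, 61.6% to 85.6%). Gab1 is shown for its ratio, so more empty oocytes in the standard group follow from that choice. The intervals cover counting error alone, with each oocyte taken as an independent draw. The amino acid transporter gene Slc38a4 (chromosome 15, 97000001 to 97100000) had 0.868 ± 0.579 and 0.326 ± 0.433, and 3 of 23 and 29 of 56 oocytes were empty. Jade1, of a histone acetylation complex, had 0.604 ± 0.366 and 0.372 ± 0.580, with a log2 ratio of 0.58, just under the limit of 1.5-fold and so not counted, and 2 of 23 and 33 of 56 oocytes empty. Sfmbt2, a Polycomb group gene, had 0.523 and 0.244.

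**Figure D5:**
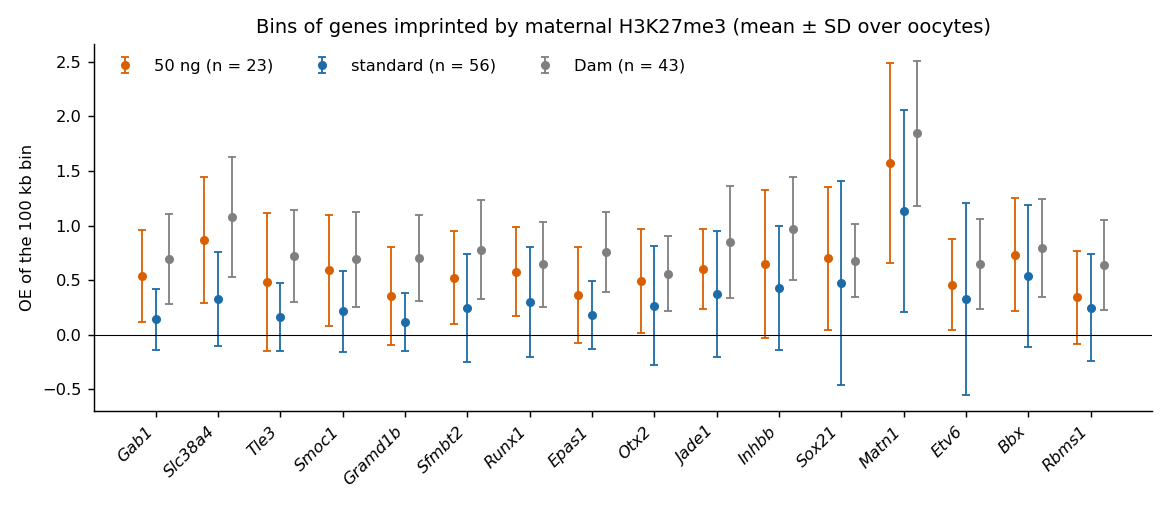
Mean OE and SD over oocytes in the 100 kb bins of 16 genes imprinted by maternal H3K27me3, ordered by the ratio of 50 ng to standard. The SD bars reach below 0 because many oocytes are at 0. In all 16 bins the 50 ng mean is above the standard mean, and the Dam mean is above 50 ng in 15. The median log2 ratio of 50 ng to standard over all bins is also above 0, at 0.19.

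Imprinted genes as a wider list, 5 of whose members are also in the H3K27me3 list, had 11 of 26 bins (42.3%) higher and 0 lower, with a median of 0.40, beside 19.5% and 0.19 over all bins. With each oocyte scaled 7 were higher (median 0.27), and with chromosomes scaled also 7 (median 0.17). Without the shared bins 7 of 21 were higher as deposited, with a median of 0.34. Peg3 (0.937 ± 0.689 at 50 ng, 0.571 ± 0.759 in standard oocytes) and Igf2r (1.08 ± 0.517 and 0.661 ± 0.782), 2 genes imprinted by DNA methylation, passed as deposited, at log2 0.63 and 0.64, and not with each oocyte scaled, at 0.49 and 0.51. Igf2r ran from 0 to 2.22 at 50 ng and from 0 to 3.02 in standard oocytes, so the groups overlapped fully.

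Pramel and Oog genes, a clustered family of leucine-rich repeat proteins expressed in the germ line, had 0 of 35 bins higher and 8 lower, with a median of -0.35, beside 3.35% lower over all bins. With each oocyte scaled 14 were lower, beside 6.37% of all bins. All 8 were among the 16 bins on chromosome 5, and none of the 15 on chromosome 4 passed. In the bin of Pramel39 and Pramel40 (chromosome 5, 94300001 to 94400000) the OE was 1.34 ± 1.38 at 50 ng and 3.68 ± 3.44 in standard oocytes, with 2.10 for Dam. The list score was 0.38 ± 0.34 at 50 ng and 0.93 ± 0.75 in standard oocytes, 19 of 23 oocytes at 50 ng being below the standard median. Genes of zygotic genome activation had 0 of 21 bins higher and 2 lower, beside 19.5% and 3.35% of all bins, with a median of -0.20. With each oocyte scaled 5 were lower (median -0.34), and with chromosomes scaled 2 (median -0.27), beside 6.37% and 5.07% of all bins. Their score was 0.43 ± 0.37 and 0.81 ± 0.57. Oocyte maternal-effect genes had 2 of 28 higher and 1 lower (median 0.06): Dppa3 (log2 0.73) and Kit (0.65) were the higher ones and Ooep (-0.70), of the subcortical maternal complex, the lower. With each oocyte scaled 1 was higher and 2 lower (median -0.07). The shares over all bins were 19.5% higher and 3.35% lower as deposited, and 14% and 6.37% with each oocyte scaled.

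Ribosomal protein genes, which are used in all cells, had 3 of 74 bins higher and 0 lower, with a median of 0.01, below the 0.19 of all bins. They had 2 higher and 2 lower (median -0.14) with each oocyte scaled and 1 higher and 7 lower with chromosomes scaled. The histone genes had 0 of 17 in either direction (median 0.00), and 2 lower with each oocyte scaled. Every 50 ng oocyte was below the standard median of the ribosomal list score, at 0.28 ± 0.11 against 0.42 ± 0.22, with 0.48 for Dam. Genes of the lamina and its tethers had 0 of 16 higher and 1 lower, Lemd2 (-0.74). Lmnb1 itself, the gene of the fused protein, was at 1.22 ± 0.664 and 0.907 ± 0.882.

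Olfactory receptors, the odorant sensors of the nose, had 62 of 338 bins (18.3%) higher and 14 lower, with a median of 0.20, close to the 19.5% and 0.19 of all bins. With each oocyte scaled 52 were higher and 23 lower. Vomeronasal receptors had 31 of 196 (15.8%) higher and 29 lower (median 0.00), and with each oocyte scaled 22 higher and 36 lower (median -0.10), so the order turned with the scale. Cytochrome P450 families 2 and 3, enzymes that oxidise drugs and steroids, had 15 of 44 (34.1%) higher and 0 lower (median 0.37), and 9 higher and 1 lower with each oocyte scaled. Long neuronal genes had 1 of 19 in each direction: Ctnna2 (1.01) was higher and Pcdh9 (-0.60), on chromosome 14, lower. With chromosomes scaled Pcdh9 was at -0.17 and 0 of 19 were lower. The score difference was smaller than 1 SD of the standard oocytes in all 20 lists. The SD over oocytes was larger in the standard group in all 20, by 1.15 to 3.28 times. Lists of other bins were not scored for comparison.

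Of the 28 marker genes 3 bins passed 1.5-fold upwards (Hoxd9, Igf2r and Peg3), 1 downwards (Pcdh9) and 24 neither, with a median of 0.07. Over all bins 19.5% passed upwards and 3.35% downwards, with a median of 0.19. With each oocyte scaled 0 passed upwards and 2 downwards (Zp3 and Pcdh9), beside 14% and 6.37% of all bins. With chromosomes scaled 0 passed upwards and 2 other bins downwards, those of Pou5f1 (-0.66) and Gata6 (-0.59), while Zp3 was at -0.58, just under the limit. On that scale 13.6% of all bins passed upwards and 5.07% downwards. In 26 of the 28 bins the SD was larger in the standard group. The share of all bins with a larger SD in that group was not counted. Its signal was less even over the whole genome, so the count is not read as a trait of the marker bins. For Actb, the cytoskeletal actin gene, the lowest, median and highest OE were 0.675, 1.79 and 2.32 at 50 ng and 0, 1.56 and 4.69 in standard oocytes. The standard oocytes extended beyond the 50 ng oocytes on both sides, with means of 1.61 ± 0.481 and 1.62 ± 1.07. Gapdh had 1.07 ± 0.667 and 1.06 ± 0.934. Zp3, of the egg coat, had 1.36 ± 0.537 and 1.97 ± 1.16 (log2 -0.50).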

How the data were processed

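Single-cell DamID of oocytes was analysed from the deposited table of OE, a ratio of observed to expected reads per 100 kb bin made by the authors. The sources used here do not give the way expected reads were derived. Build mm10, BWA 0.7.12 and cutadapt are listed in the submitters' processing notes, with no order or settings. LAD coordinates of ICM and TE were deposited by the authors as intervals without values, by a method that the sources used here do not give. Groups came from titles and dose labels.

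Of 24639 bins 617 without a value were left out. Within a bin OE is a whole number of reads times a step, estimated from the 60 emptiest cells and found in 23857 bins. Only values of low read number, in bins with a step, were checked, with a tolerance of 0.02 reads. In the 171 cells used 100% of those above 0 came out whole. The step taken was the largest that did so, so depths are estimates, and PCR copies of a molecule cannot be told from separate molecules. Recovery and fold calls were tried on simulated reads, drawn at random around a mean profile shared by all cells apart from planted folds. The simulated cells lacked the clumped reads and the chromosome differences of the standard oocytes. The error of the fold calls in the real oocytes was therefore not tested. Thinning drew reads without replacement. Genes were placed by midpoint from RefSeq (GRCm38.p6, the assembly of mm10), 20523 protein-coding genes in all.

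Named bins were the 10 highest and 10 lowest by log2((50 ng + 0.1)/(standard + 0.1)) among bins with a protein-coding gene and a mean OE of at least 0.5 over both groups, the most extreme within 1 Mb, with the 5 highest and 5 lowest 1 Mb windows (at least 5 bins with a value), 28 marker genes and 20 gene lists. Members and lists were chosen with earlier results of these data known. No test was run, since each group is 1 sample. Alternatives were equal reads, medians, Spearman's rho, other LAD definitions, pseudocounts, folds and a floor on OE, pooled reads, and, chosen after seeing the data, scaling per oocyte or per chromosome. Python 3.11.15 was used with numpy 2.4.6, pandas 2.3.3, scipy 1.17.1 and matplotlib 3.10.9.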

Additional observations from a re-analysis of the deposited data

How the results depend on the processing

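No paired analysis was possible because no result comes from a test and the replicate numbers that groups share only name cells. All values here are 50 ng minus standard unless stated. The lower share of empty bins, the lower autocorrelation and the lower r with the zygote profile kept their direction in every alternative tried. The lower LAD contrast kept its direction under equal reads, medians and the ICM list alone (-0.0315). Bins covered wholly by both lists gave the main value again, -0.0544, so that setting is no separate alternative. Bins at an OE of 1 or more made up a share 9.51 percentage points higher, but at an OE of 2 or more the difference was -3.62 points as deposited and 2.33 points at equal reads. The mean r between oocytes, 0.00576, turned to -0.0321 at equal reads, -0.0142 with medians and -0.0110 with Spearman's rho. With each chromosome scaled, a choice made after seeing the data, the autocorrelation difference at 10 bins was -0.0373 in place of -0.105, since chromosome levels no longer enter it. The 5484 bins past 1.5-fold became 1418 (1234 higher, 184 lower) with a fold of 2 and 297 (126 higher, 171 lower) with a pseudocount of 1. The 160 windows of 1 Mb became 6 (2 higher, 4 lower) with a fold of 2, 7 (1 higher, 6 lower) with a pseudocount of 1, 249 (208 higher, 41 lower) with a pseudocount of 0.01 and 59 (43 higher, 16 lower) with chromosomes scaled. At equal reads the score differences of vomeronasal receptors (0.0156) and developmental transcription factors (0.0481) turned to -0.0123 and -0.0526, and 17 of 19 list scores kept their direction. The prolactin list gave no value there, and medians over the bins of a list gave none for any of the 20 lists, because some oocyte was at 0. At the lowest depth of 23561 reads a bin holds about 1 read, so empty bins of single oocytes are limited by counting.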

Other observations

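The 13 oocytes whose title and dose label contradict each other, 4 titled 50 ng and labelled 20 ng and 9 titled 20 ng and labelled 50 ng, entered no group. At equal reads their share of empty bins ran from 38.6% to 40.9% (median 39.3%), their variance over mean of reads from 1.07 to 1.19 (median 1.12) and their autocorrelation at 1 bin from 0.0232 to 0.0899 (median 0.0682). Their LAD contrast ran from -0.36 to -0.21 (median -0.27). The SD of the level over chromosomes ran from 0.0436 to 0.117 (median 0.0628).

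The 17 oocytes labelled 20 ng, a separate group, had 1 oocyte with a chromosome at least 1.5-fold above its mean, at a level of 1.79, and an autosomal ratio of observed to expected reads of 0.935 to 1.02 (median 0.997).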
